A study of Mus musculus with 14 samples.

Results

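The miR-181 family was examined in the dorsal root ganglia (DRG) of the mouse strains CAST/Ei and C57BL/6, with and without a crush of the sciatic nerve. Its members were taken by name as every arm and every copy of miR-181a, miR-181b, miR-181c and miR-181d, which gave 10 of the 1123 mature miRNAs in the small RNA libraries. The 14 libraries fall into 4 groups: 3 from injured CAST/Ei mice, 3 from naive CAST/Ei mice, 3 from injured C57BL/6 mice and 5 from naive C57BL/6 mice. The injured mice were male and 8 to 10 weeks old, and a forceps crush of 30 s was applied to the sciatic nerve on the left side. The naive mice had no treatment, and their age and sex are not on record. Both strains are inbred, CAST/Ei from wild-caught mice, and the labels name no transgene. Per the series' design text the replicates in each group are biological, but no source says whether animals were pooled, so the p-values below measure the spread between libraries. RNA came from whole, dissociated ganglia, so fewer cells of a type and less RNA per cell cannot be told apart. The sources used here give neither the time after the crush nor the spinal levels of the ganglia.

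A miRNA is cut from a hairpin precursor whose arms, 5p and 3p, each can yield a mature strand of about the same length. The strand that Argonaute keeps pairs with target mRNAs mainly through its seed, bases 2 to 8 from the 5′ end, and lowers their translation and stability. In the miR-181 family the 5p arm is the usual guide strand. The family is known best for tuning antigen receptor signalling in developing T cells, and it is also abundant in the brain. DRG hold the cell bodies of sensory neurons with their satellite glia, and a crush of the sciatic nerve cuts the axons of many of them, which then regrow.

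The mature sequences show how the 10 entries relate to each other. They are the RefSeq mouse sequences of build GRCm38.p6, in which all 10 names were matched, and the capitals mark the seed.
miR-181a-5p: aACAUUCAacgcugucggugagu
miR-181b-5p: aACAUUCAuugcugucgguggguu
miR-181c-5p: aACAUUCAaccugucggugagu
miR-181d-5p: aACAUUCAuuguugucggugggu
miR-181a-1-3p: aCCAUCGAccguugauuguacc
miR-181a-2-3p: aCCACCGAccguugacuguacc
miR-181c-3p: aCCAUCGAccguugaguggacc
miR-181d-3p: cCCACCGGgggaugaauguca
miR-181b-1-3p: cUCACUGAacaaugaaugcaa
miR-181b-2-3p: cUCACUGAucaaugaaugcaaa
The 4 5p entries share the seed ACAUUCA, and no other mouse miRNA in the RefSeq table has it. The 3p entries differ more. miR-181a-1-3p and miR-181c-3p share CCAUCGA, miR-181b-1-3p and miR-181b-2-3p share UCACUGA, and miR-181a-2-3p and miR-181d-3p each have a seed that no other entry of the family has. Counted from 1 at the 5′ end of the sequence named first, miR-181a-5p differs from miR-181b-5p at A9U, C10U and A21G and by 1 more base in miR-181b-5p. miR-181c-5p is miR-181a-5p with 1 base fewer, and miR-181d-5p differs from miR-181b-5p at C12U and by 1 base fewer. The 3p arms of both miR-181a copies differ at U5C, which lies in the seed, and at U16C, and miR-181b-1-3p differs from miR-181b-2-3p at A9U. The sources used here do not say how reads were shared out among such near-identical entries, so levels of neighbouring entries could include reads of each other.

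These entries come from 6 hairpins in 3 pairs. Mir181a-1 and Mir181b-1 lie on the plus strand of chromosome 1 with 97 bases between them, inside the non-coding gene Gm4258 but outside its exons. Mir181b-1 lies within an exon of the lincRNA A430106G13Rik, and Mir181a-1 overlaps an exon of that gene in part. Mir181a-2 and Mir181b-2 lie on chromosome 2 with 1019 bases between them, on the strand opposite the nuclear receptor gene Nr6a1, outside its exons. Mir181b-2 also lies within an exon of Gm44144, a gene on the opposite strand. Mir181c and Mir181d lie on chromosome 8 with 85 bases between them, in the same orientation as Nanos3 and outside its exons. The mature miR-181a-5p and miR-181b-5p are the same from either of their copies, so their values sum both loci, and only the 3p arms tell the copies apart. The hairpins of Mir181a-1 (chr1:137966455-137966541, plus strand) and Mir181d (chr8:84178716-84178787, minus strand) show the arms in capitals, 5p first, for the most abundant entry and for the entry that differed between strains.
Mir181a-1: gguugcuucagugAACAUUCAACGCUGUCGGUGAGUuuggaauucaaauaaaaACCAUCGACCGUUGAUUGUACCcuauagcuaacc
Mir181d: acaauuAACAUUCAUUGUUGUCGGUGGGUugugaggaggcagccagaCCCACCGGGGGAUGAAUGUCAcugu

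Values are the deposited CPM, the reads of a miRNA scaled to a common library total, here on library sizes that the authors had adjusted. The libraries held 4007706 to 15642360 reads, 1 read was worth 0.0674 to 0.253 CPM, and 3 reads, taken as the floor of a library, 0.202 to 0.760 CPM, which covers counting error only. All 7 neuronal marker miRNAs were above 0 in every library, and their sum was 103355 to 166741 CPM. Of the 10 entries, 8 had at least 5 CPM in at least 3 libraries and were among the 638 miRNAs tested. They were all 4 of the 5p entries and 4 of the 6 3p entries. Among them miR-181b-1-3p passed through only 5 naive libraries. miR-181b-2-3p reached at most 1.38 CPM and miR-181d-3p at most 2.63 CPM, with 79 and 87 reads over all 14 libraries, and neither was tested. A pair of the C57BL/6 naive libraries, 4 and 5, differed from the remaining 12: their 10 most abundant miRNAs took 56.6% and 50.1% of the reads, against 37.7% to 45.9%, so values with and without them are given where they matter. CAST/Ei naive library 3 stood apart within the miR-181 family itself. Groups were compared with limma on log2(CPM + 1) over all 638 miRNAs, and a difference is called where its two-sided p, adjusted by Benjamini and Hochberg, is under 0.05.

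The 5p arms made up nearly all of the family, and miR-181a-5p most of it. Over the 14 libraries the mean level was 3651 CPM for miR-181a-5p, which ranked 55 of 1123 miRNAs, 1148 CPM for miR-181b-5p, 444 CPM for miR-181c-5p and 51.2 CPM for miR-181d-5p. Mature miRNAs have nearly the same length, so these levels can be set beside each other apart from capture bias between sequences. miR-181a-5p held 67.1% of the summed family level, miR-181b-5p 21.1%, miR-181c-5p 8.17% and miR-181d-5p 0.941%. miR-181a-5p was above miR-181b-5p, miR-181b-5p above miR-181c-5p and miR-181c-5p above miR-181d-5p in each of the 14 libraries.

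Among the 3p arms, the presumed passenger strands, miR-181a-1-3p was the highest at 79.2 CPM, followed by miR-181c-3p at 35.9 CPM, miR-181a-2-3p at 25.5 CPM and miR-181b-1-3p at 4.36 CPM. miR-181a-1-3p was thus above miR-181d-5p in the mean although it is a 3p arm. The order of these 2 differed between libraries, with miR-181d-5p higher in CAST/Ei naive library 2 (100.3 CPM against 81.2 CPM), CAST/Ei injured library 2 (70.2 CPM against 62.3 CPM) and C57BL/6 injured library 3 (61.4 CPM against 58.1 CPM). The summed 10 entries took 0.396% to 0.791% of the library in 13 libraries and 0.162% in CAST/Ei naive library 3.

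**Figure D1:**
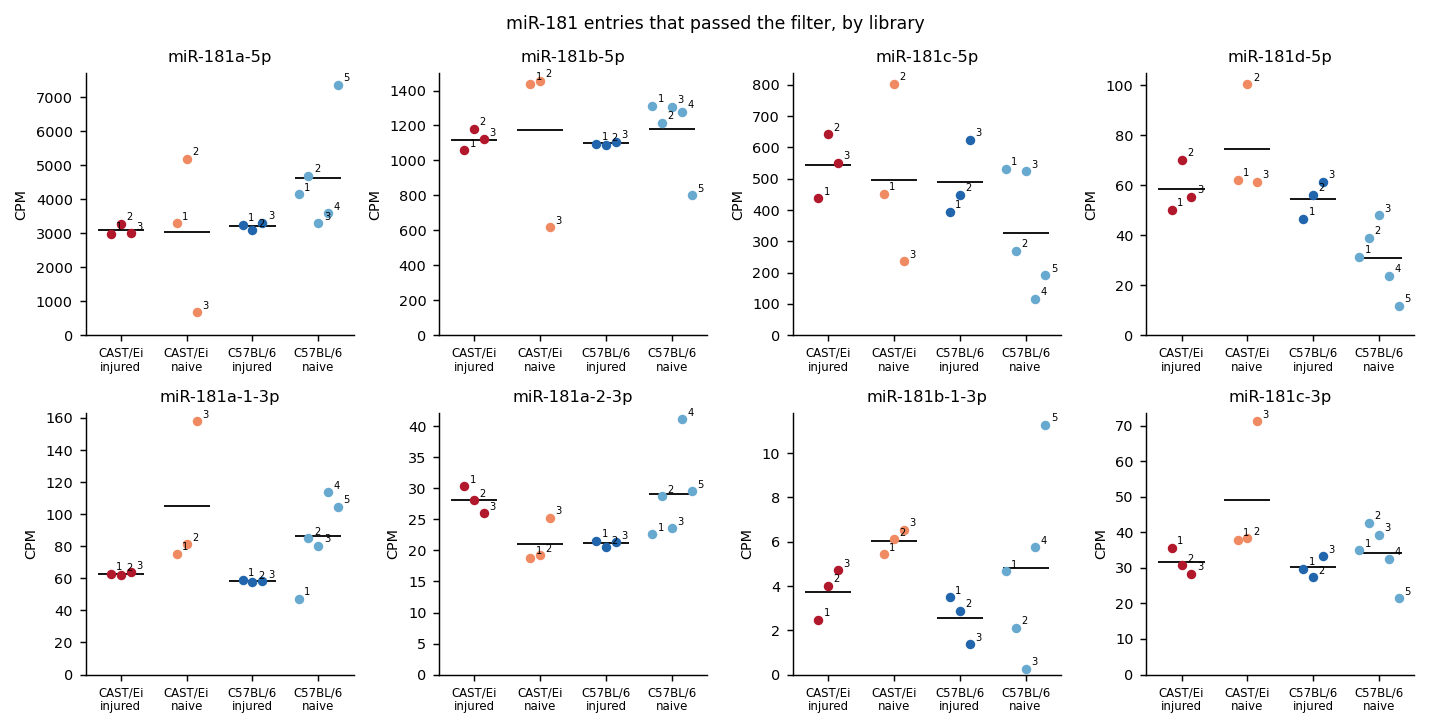
CPM of the 8 tested miR-181 entries in each library (points, numbered by library) with the group mean (line), for the groups CAST/Ei injured, CAST/Ei naive, C57BL/6 injured and C57BL/6 naive from left to right; each panel has its own linear axis from 0. For miR-181d-5p the 3 CAST/Ei naive libraries lie at 61.4 to 100.3 CPM, above all 5 C57BL/6 naive libraries, and for miR-181a-5p CAST/Ei naive library 3 lies at 671 CPM, the lowest of the 14.

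miR-181d-5p was the 1 entry that differed between groups past the threshold, and it did so between the strains without injury. It stood at 62.1, 100.3 and 61.4 CPM in the CAST/Ei naive libraries, against 31.2, 39.0, 47.9, 23.7 and 11.7 CPM in C57BL/6 naive libraries 1 to 5. Every CAST/Ei naive library was above every C57BL/6 naive library. CAST/Ei naive DRG averaged 74.6 ± 22.3 CPM (SD, n = 3), against 30.7 ± 13.9 CPM for C57BL/6 (n = 5), and the log2 difference was 1.36 ± 0.37 (SE, 95% interval 0.56 to 2.15, limma adjusted p = 0.0303). It was 1 of 8 tested entries called, against 11.1% of the 638 miRNAs tested in this comparison, so the share called in the family is close to that of all miRNAs. Over the 14 libraries miR-181d-5p had 6780 reads.

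With 1 library left out at a time, this log2 difference stayed at 1.06 to 1.55. Its call was lost when any 1 CAST/Ei naive library was left out alone. The lowest C57BL/6 values were in libraries 5 and 4, the pair that stood apart. Without them C57BL/6 naive DRG averaged 39.4 ± 8.33 CPM (SD, n = 3) and the log2 difference was 0.89 (limma adjusted p = 0.0337). The call was lost without CAST/Ei naive library 1 (limma adjusted p = 0.0645), library 2 (0.109) or library 3 (0.0627), with the log2 difference then 1.13 to 1.48. It was also lost with plain CPM (0.0598) and when only these groups were modelled (0.139). With the library number as a block the log2 difference was 0.89 (limma adjusted p = 0.0192) and 111 of the 638 miRNAs were called, against 71 without it.

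Markers of other cells moved with miR-181d-5p in this comparison. The 4 markers of myelinating glia, all above 0 in every library, summed to 37058 to 42868 CPM in CAST/Ei naive libraries, against 8044 to 35829 CPM in C57BL/6 naive libraries. The 2 endothelial markers, above 0 in every library, summed to 18746 to 27549 CPM in CAST/Ei naive libraries, against 11212 to 16081 CPM in C57BL/6 naive ones. The sums of the 7 neuronal markers overlapped, at 131192 to 146863 CPM in CAST/Ei naive and 133376 to 166741 CPM in C57BL/6 naive libraries. So did those of the 9 leukocyte markers, at 3812 to 6244 CPM in CAST/Ei naive and 4330 to 7784 CPM in C57BL/6 naive libraries, with 1 of the 9 at 0 in a library. The sums for skeletal muscle (4 markers), erythrocyte (4) and epithelial (7) markers overlapped as well. Their part in the result was not tested.

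After injury the strains were close for miR-181d-5p. CAST/Ei injured libraries had 50.1, 70.2 and 55.5 CPM, against 46.5, 56.1 and 61.4 CPM in C57BL/6 injured libraries, and the groups overlapped (log2 0.09, 95% interval -0.79 to 0.98, limma adjusted p = 0.985). Within CAST/Ei, the injured libraries were set against 62.1, 100.3 and 61.4 CPM in naive ones (log2 -0.32, 95% interval -1.20 to 0.57, limma adjusted p = 0.897). Within C57BL/6, the 3 injured libraries were set against 11.7 to 47.9 CPM in the 5 naive ones. The log2 difference was 0.94 (95% interval 0.15 to 1.73, limma adjusted p = 0.146), which did not pass, and injured library 1 lay within the naive range. The difference between the strains' injury effects, CAST/Ei minus C57BL/6, was -1.26 (95% interval -2.45 to -0.08, unadjusted p = 0.0386, limma adjusted p = 0.529), which did not pass either. Ordered by the mean, the groups ran CAST/Ei naive, CAST/Ei injured (58.6 ± 10.4 CPM, SD, n = 3), C57BL/6 injured (54.6 ± 7.54 CPM, n = 3) and C57BL/6 naive, and no 2 neighbours in this order differed past the threshold.

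miR-181c-5p, from the hairpin beside that of miR-181d, was not called in any comparison. It stood at 437, 642 and 550 CPM in CAST/Ei injured, 453, 803 and 237 CPM in CAST/Ei naive, 394, 448 and 624 CPM in C57BL/6 injured, and 532, 269, 523, 117 and 192 CPM in C57BL/6 naive libraries. All groups overlapped, and the lowest values were those of C57BL/6 naive libraries 4 and 5. The log2 differences were 0.66 ± 0.47 (SE) for CAST/Ei naive against C57BL/6 naive and 0.78 ± 0.47 for C57BL/6 injured against C57BL/6 naive (limma adjusted p = 0.359 and 0.336). The level of miR-181d-5p was 5.87% to 25.9% of that of miR-181c-5p over the 14 libraries, with 10.1% to 11.5% in CAST/Ei injured and 9.83% to 12.5% in C57BL/6 injured libraries. Their Pearson correlation over the 14 libraries was 0.72, and 0.44 over the 12 without C57BL/6 naive libraries 4 and 5.

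The relation of miR-181d-5p to miR-181b-5p, whose sequence is the closest to its own, was looked at after the values were seen. miR-181d-5p was 4.32% to 9.93% of miR-181b-5p in CAST/Ei naive libraries, against 1.46% to 3.67% in C57BL/6 naive libraries, with no overlap. It was 4.74% to 5.95% in CAST/Ei injured and 4.25% to 5.55% in C57BL/6 injured libraries, which overlapped. Between the naive strains miR-181d-5p itself did not overlap and miR-181b-5p differed by log2 -0.09, so this ratio largely restates the difference of miR-181d-5p. The 9.93% is that of CAST/Ei naive library 3, where miR-181b-5p was lowest.

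miR-181a-5p and miR-181b-5p, the most abundant entries, did not pass in any comparison. miR-181a-5p stood at 2980, 3284 and 2999 CPM in CAST/Ei injured, 3287, 5178 and 671 CPM in CAST/Ei naive, 3254, 3087 and 3309 CPM in C57BL/6 injured, and 4143, 4681, 3291, 3585 and 7367 CPM in C57BL/6 naive libraries. Both ends of its range were in naive DRG, and the 6 injured libraries lay within 2980 to 3309 CPM. Ordered by the mean, C57BL/6 naive (4613 ± 1629 CPM, SD, n = 5) was above C57BL/6 injured (3217 ± 115, n = 3), CAST/Ei injured (3088 ± 170, n = 3) and CAST/Ei naive (3045 ± 2263, n = 3), and neighbours in this order did not differ beyond their spread. The injury effect was 0.45 ± 0.53 (log2, SE) in CAST/Ei and -0.46 ± 0.47 in C57BL/6 (limma adjusted p = 0.894 and 0.575). The first of these turned to -0.42 without CAST/Ei naive library 3. In naive DRG the strain difference was -0.97 (95% interval -1.98 to 0.04, limma adjusted p = 0.171), and -0.10 without that library.

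miR-181b-5p varied least of the 5p entries. It stood at 1057, 1179 and 1120 CPM in CAST/Ei injured, 1439, 1457 and 618 CPM in CAST/Ei naive, 1095, 1091 and 1107 CPM in C57BL/6 injured, and 1311, 1214, 1306, 1279 and 801 CPM in C57BL/6 naive libraries. Injured and naive libraries overlapped in both strains. CAST/Ei naive library 3 and C57BL/6 naive library 5 lay below every injured library, and the remaining naive libraries lay above. With all libraries the injury effect was 0.04 ± 0.31 (log2, SE) in CAST/Ei and -0.08 ± 0.28 in C57BL/6 (limma adjusted p = 0.978 and 0.876). With plain CPM the C57BL/6 value turned to 0.06, and without CAST/Ei naive library 3 the CAST/Ei value turned to -0.37.

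The 3p arms were likewise not called, but several had groups that did not overlap. After injury in CAST/Ei DRG, 4 of 8 entries did not overlap between injured and naive libraries, against 26.6% of all 638 miRNAs. miR-181a-1-3p, miR-181b-1-3p and miR-181c-3p were lower and miR-181a-2-3p was higher in the injured libraries, and miR-181b-1-3p is in this count through a filter that its naive values alone met, so nothing is read from the count. In C57BL/6 it was 1 of 8, against 14.9%. Between the strains it was 2 of 8 in injured DRG, miR-181a-1-3p and miR-181a-2-3p, against 35.9%, and 1 of 8, miR-181d-5p, in naive DRG, against 16.5%. Markers moved with injury too. The 7 neuronal markers summed to 103355 to 112086 CPM in CAST/Ei injured libraries, against 131192 to 146863 CPM in CAST/Ei naive ones, and to 108277 to 112744 CPM in C57BL/6 injured libraries, against 133376 to 166741 CPM in C57BL/6 naive ones. The 4 myelinating glia markers summed to 30720 to 32124 CPM in CAST/Ei injured libraries, below both the 37058 to 42868 CPM of CAST/Ei naive and the 36608 to 45396 CPM of C57BL/6 injured libraries. In C57BL/6 their sum was higher in injured than in naive libraries, where it was 8044 to 35829 CPM. The 2 endothelial markers summed to 18408 to 20895 CPM in C57BL/6 injured libraries, against 11212 to 16081 CPM in naive ones. In CAST/Ei the 4 skeletal muscle markers summed to 6359 to 7393 CPM in injured libraries, against 8788 to 11363 CPM in naive ones, and the 4 erythrocyte markers to 7593 to 9103 CPM, against 9587 to 13361 CPM. The other marker sums overlapped between injured and naive libraries of a strain. Between the injured strains, the skeletal muscle and erythrocyte sums did not overlap either. In C57BL/6 injured libraries they were 8868 to 9575 CPM and 11102 to 14500 CPM, above those of CAST/Ei injured libraries. The neuronal, leukocyte, endothelial and epithelial marker sums overlapped between the injured strains. Their part in these differences was not tested. miR-181a-1-3p had 63.0, 62.3 and 63.7 CPM in CAST/Ei injured libraries, against 75.3, 81.2 and 157.8 CPM in CAST/Ei naive libraries (log2 -0.64 ± 0.34, SE, limma adjusted p = 0.676). Without CAST/Ei naive library 3 its log2 difference was -0.31. In C57BL/6 it had 59.2, 57.6 and 58.1 CPM in injured libraries, against 47.4, 84.9, 80.3, 113.7 and 104.6 CPM in naive ones, which overlapped through naive library 1 (log2 -0.50 ± 0.31, limma adjusted p = 0.348).

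miR-181a-2-3p marks the chromosome 2 copy, and its injured libraries lay on opposite sides of the naive ones in the 2 strains. It had 30.3, 28.1 and 26.0 CPM in CAST/Ei injured libraries, against 18.8, 19.2 and 25.3 CPM in CAST/Ei naive libraries, so every injured value was above every naive value (log2 0.41 ± 0.28, SE, limma adjusted p = 0.793). In C57BL/6 it had 21.6, 20.5 and 21.3 CPM in injured libraries, against 22.6, 28.8, 23.6, 41.1 and 29.5 CPM in naive ones, so every injured value was below every naive value (log2 -0.41 ± 0.25, limma adjusted p = 0.336). The difference between these injury effects was 0.82 (95% interval 0.02 to 1.62, unadjusted p = 0.0443, limma adjusted p = 0.529), which did not pass. In injured DRG its CAST/Ei values were all above the C57BL/6 values (log2 0.39 ± 0.28, limma adjusted p = 0.862). Of all 638 miRNAs, 10.2% lay wholly higher after injury in CAST/Ei and 6.27% wholly lower after injury in C57BL/6. The share that did both was not counted.

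Within a library, miR-181a-2-3p was 40.8% to 48.1% of miR-181a-1-3p in CAST/Ei injured libraries, against 16.0% to 25.0% in CAST/Ei naive libraries, with no overlap. In C57BL/6 it was 35.7% to 36.7% in injured libraries, within the 28.2% to 47.7% of the naive ones. These ratios compare the passenger arms of the 2 miR-181a copies and carry no test. In CAST/Ei every injured library was already higher for miR-181a-2-3p and lower for miR-181a-1-3p, so their ratio had to separate.

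miR-181c-3p had 35.7, 30.7 and 28.3 CPM in CAST/Ei injured libraries, against 37.8, 38.3 and 71.2 CPM in CAST/Ei naive ones, all lower after injury (log2 -0.56 ± 0.32, SE, limma adjusted p = 0.723). Without CAST/Ei naive library 3 its log2 difference was -0.27. In C57BL/6 the injured libraries had 29.8, 27.3 and 33.2 CPM, against 34.9, 42.6, 39.3, 32.6 and 21.4 CPM in naive ones, and they overlapped (log2 -0.15 ± 0.29, limma adjusted p = 0.774). miR-181b-1-3p had 2.47, 4.02 and 4.72 CPM in CAST/Ei injured libraries, against 5.43, 6.12 and 6.53 CPM in CAST/Ei naive ones, also with every injured value lower (limma adjusted p = 0.870). It passed the filter only through naive libraries, so this direction was favoured by the filter. In C57BL/6 it ranged over 1.37 to 3.48 CPM in injured and 0.253 to 11.3 CPM in naive libraries, where its lowest value is that of 1 read.

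**Figure D2:**
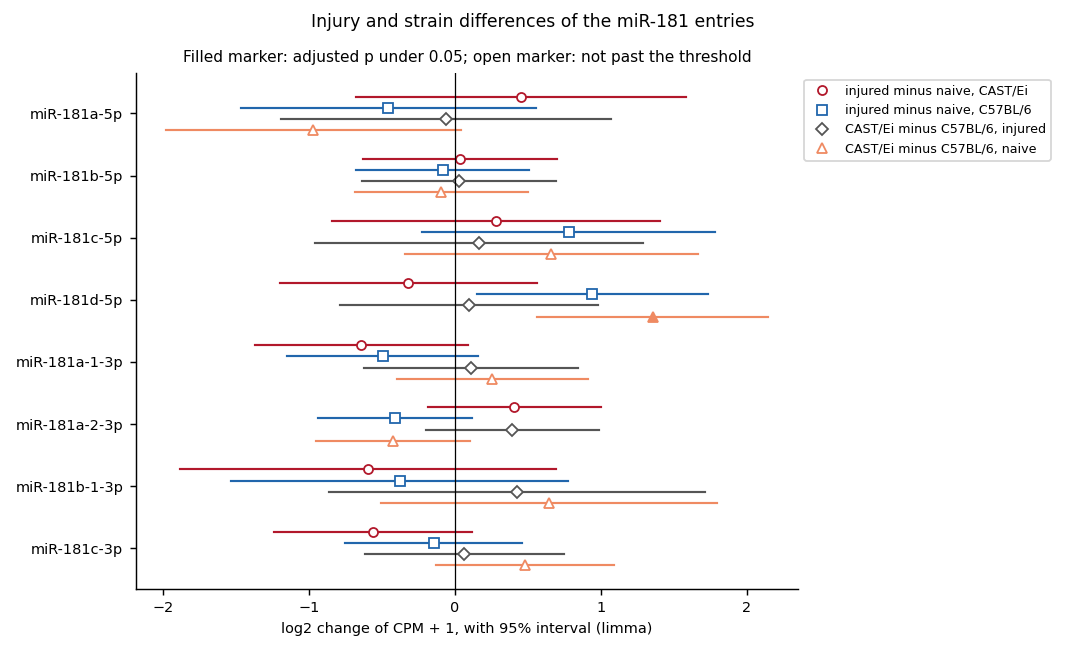
Log2 difference of CPM + 1 (horizontal axis) with its 95% interval for the 8 tested miR-181 entries in 4 comparisons, from limma over all 14 libraries; filled markers have an adjusted p under 0.05. miR-181d-5p between the naive strains, at 1.36, is the 1 filled marker, and the markers of miR-181a-2-3p for injury lie on opposite sides of 0, at 0.41 in CAST/Ei and -0.41 in C57BL/6.

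No tested entry passed for injury in CAST/Ei (background 1.1% of 638 miRNAs), for injury in C57BL/6 (3.13%), between strains in injured DRG (3.29%) or for the strain difference in the injury effect (0%). In the last of these, 52 miRNAs (8.15%) had an unadjusted p under 0.05 with limma, 2 of them miR-181d-5p and miR-181a-2-3p, while edgeR called 1 miRNA and DESeq2 called 9. For injury in CAST/Ei the median log2 change of the 8 entries was -0.14, against -0.09 for all tested miRNAs, and for injury in C57BL/6 -0.26 against 0.12. Between strains it was 0.10 against -0.06 in injured DRG and 0.37 against 0.12 in naive DRG. With plain CPM the CAST/Ei injury median of the entries turned to 0.12, where that of all miRNAs was 0.16. The comparisons share groups, so these medians are not independent of each other.

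CAST/Ei naive library 3 had a different make-up of the family from the other 13 libraries. Its levels of miR-181a-5p (671 CPM) and miR-181b-5p (618 CPM) were the lowest of all 14, and those of miR-181a-1-3p (157.8 CPM) and miR-181c-3p (71.2 CPM) the highest. The 3p arms together made up 14.2% of the family signal there, against 1.79% to 3.78% in the other libraries. miR-181a-1-3p was 23.5% of miR-181a-5p, against 1.14% to 3.17% elsewhere, a ratio looked at after the values were seen. Against the mean of the other 2 CAST/Ei naive libraries, miR-181a-5p was lower by 2.62 on the log2 scale, the third largest drop of the 638 tested miRNAs after let-7i-3p and miR-210-3p.

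The shift in that library was also taken by arm, a step added after the values were seen. Over the tested miRNAs outside the family, the median shift was 0.01 for 276 5p arms and -0.11 for 306 3p arms. miR-181d-5p shifted by -0.36, miR-181b-5p by -1.23 and miR-181c-5p by -1.35. Its 7 neuronal markers summed to 131192 CPM, just below the 141008 and 146863 CPM of the other CAST/Ei naive libraries. Its sums were the highest of the 3 libraries for markers of myelinating glia (42868 CPM), leukocytes (6244 CPM), erythrocytes (13361 CPM) and epithelium (384 CPM), and the lowest for skeletal muscle (8788 CPM). Their part in the result was not tested.

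**Figure D3:**
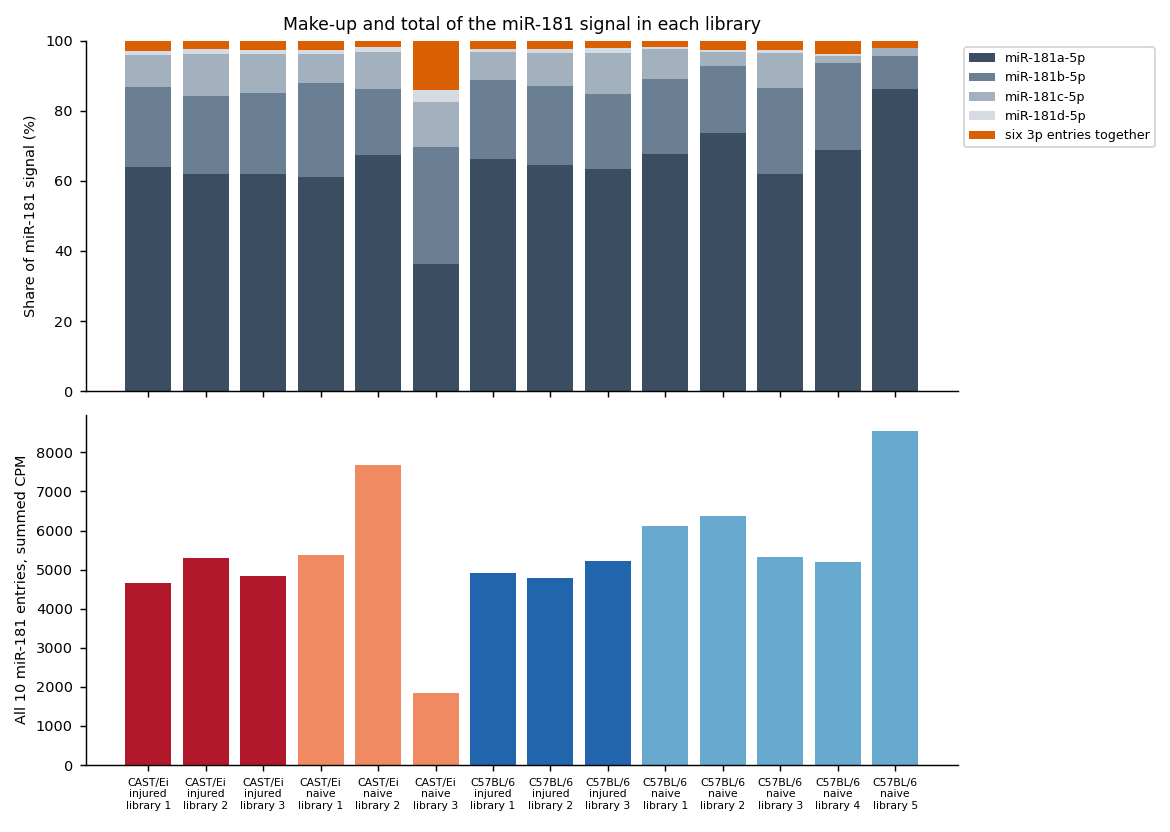
Upper panel: share of the summed miR-181 level (percent) held by each 5p entry and by the 6 3p entries together, in each library. Lower panel: the summed level of all 10 entries in CPM. The 3p entries hold 14.2% in CAST/Ei naive library 3 and at most 3.78% elsewhere, and C57BL/6 naive library 5 has the largest share of miR-181a-5p, at 86.2%.

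C57BL/6 naive library 5 lay at the other end, with the highest level of miR-181a-5p (7367 CPM) and the lowest of miR-181d-5p (11.7 CPM). miR-181b-5p was 10.9% of miR-181a-5p in it, against 92.1% in CAST/Ei naive library 3 and 25.9% to 43.8% in the remaining 12 libraries. In injured DRG this ratio was narrow, at 35.5% to 37.3% in CAST/Ei and 33.4% to 35.3% in C57BL/6 libraries.

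Injured libraries were close to each other for some entries and not for others. In CAST/Ei injured DRG the SD of log2 levels was 0.015 for miR-181a-1-3p and 0.079 for miR-181b-5p, against a median of 0.18 over all tested miRNAs. In C57BL/6 injured DRG it was 0.011 for miR-181b-5p, 0.020 for miR-181a-1-3p and 0.052 for miR-181a-5p, against a median of 0.23. It was above the median for miR-181c-5p (0.28 in CAST/Ei and 0.34 in C57BL/6 injured DRG) and miR-181b-1-3p (0.37 and 0.48 in the same groups), and for miR-181d-5p in CAST/Ei injured DRG (0.25). In CAST/Ei naive DRG it was 1.55 for miR-181a-5p, against a median of 0.36, and 0.46 in C57BL/6 naive DRG, against 0.61. Without CAST/Ei naive library 3 the CAST/Ei naive value for miR-181a-5p was 0.46 over 2 libraries, against a median of 0.24.

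**Figure D4:**
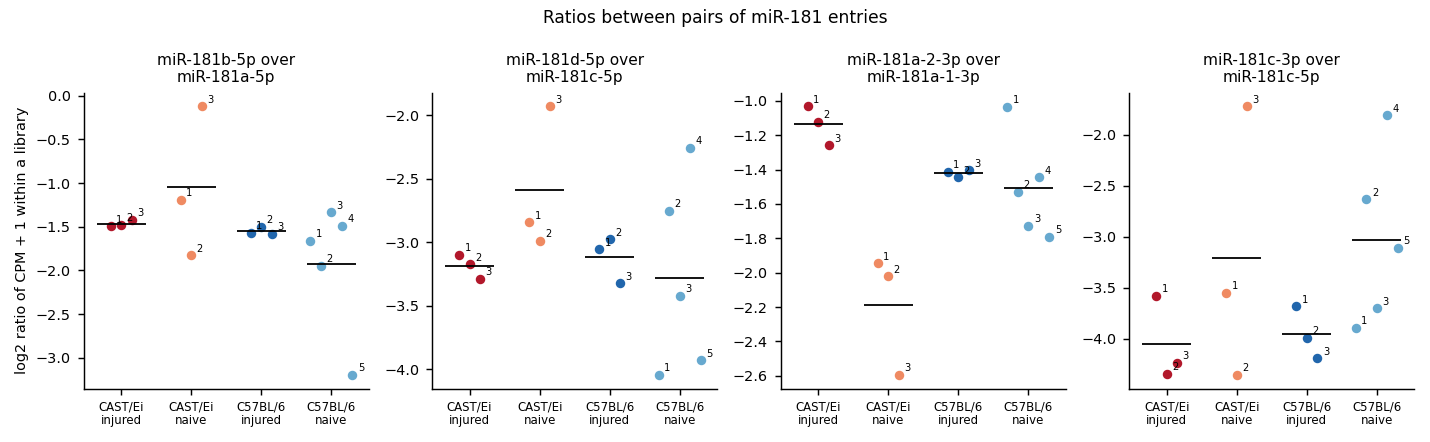
Log2 ratio of CPM + 1 between pairs of miR-181 entries within each library (points, numbered) with the group mean (line), for CAST/Ei injured, CAST/Ei naive, C57BL/6 injured and C57BL/6 naive from left to right; the axes differ between panels. For miR-181a-2-3p over miR-181a-1-3p the CAST/Ei injured libraries lie at -1.26 to -1.03, above the CAST/Ei naive libraries at -2.60 to -1.94. This gap follows from both entries separating there in opposite directions.

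Pearson correlations of log2 levels over the 14 libraries, which share depth and library effects, describe which miRNAs varied with each 5p entry. miR-181a-5p was most like miR-124-5p (0.93), from the hairpin of the neuronal miR-124, then miR-210-3p (0.89), known for its rise in hypoxia, and miR-532-5p (0.84). All 3 were lowest in CAST/Ei naive library 3, at 8.94, 40.7 and 14.1 CPM, and highest in C57BL/6 naive library 5. miR-181b-5p was most like miR-466m-5p (0.78), the neuronal miR-124-3p (0.76) and miR-370-5p (0.74). miR-181d-5p was most like miR-154-5p (0.96), miR-1843b-5p (0.96) and miR-3106-3p (0.94). Without C57BL/6 naive libraries 4 and 5 these values were 0.89, 0.90 and 0.79. miR-3106-3p is scarce, with a mean of 3.68 CPM and none in C57BL/6 naive library 5. For miR-181c-5p the nearest were miR-3070b-3p, miR-140-5p and miR-532-3p (0.83 each), with values of 0.48, 0.45 and 0.45 without C57BL/6 naive libraries 4 and 5. Within the family, miR-181a-5p and miR-181b-5p correlated at 0.56 over 14 libraries and 0.92 over the 12 without that pair.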

How the data were processed

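Small RNA was sequenced from DRG in 14 libraries. Per the labels' protocols, RNA was extracted with the miRVana kit and libraries were made with the Ion Total RNA-Seq kit. Reads were aligned with Bowtie2, per the submitters' processing notes. The sources used here do not give its version, the genome build, the miRNA name release, the counting of multimapping reads or any batch. The authors deposited 1 signal value per miRNA and library. In each library 100% of the values were whole multiples of 1 read within 1e-06 reads, and the values total 867581 to 1311857 per library, so they are CPM on scaled library sizes. This check does not rank the libraries by how certain the recovery is. An edgeR alternative also left out C57BL/6 injured library 1.

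The test was limma-trend (limma 3.58.1, R 4.3.3) on log2(CPM + 1), over the 638 miRNAs that reached 5 CPM in 3 or more libraries, with a mean for each of 4 groups. The two-sided p-values of a comparison were adjusted over all 638 by the Benjamini-Hochberg method, with a threshold of 0.05. Log2 differences understate the change of entries at a few CPM. Alternatives were edgeR 4.0.16 and DESeq2 1.42.0 on recovered reads, plain CPM, other filters, a pseudocount of 0.25, fewer groups or libraries, and a replicate block. The fit was tested on simulated data for injury in C57BL/6. It called 29.3% of 99 miRNAs changed by 1 on the log2 scale and 94.9% of 98 changed by 2. Of 432 unchanged miRNAs it called 1.39%. An uncalled log2 difference of 1 or less thus does not show that a miRNA was unchanged. Plain CPM had been assumed when the test was planned, and the same test was kept. No label says what a library number marks. Deviations of same-numbered libraries correlated at 0.10 to 0.11 between CAST/Ei naive and C57BL/6 naive, all over 0.1, so the blocked values stand beside that comparison. In each of the other comparisons at least 1 pair was under 0.1, and over all groups 10 of 18 pairs were over it. Between C57BL/6 injured and CAST/Ei naive, which were not compared, the correlations were 0.11 to 0.56, so values over 0.1 do not show pairing. Every miR-181 entry is named. The 3 most correlated miRNAs outside the family are named for each 5p entry. Sequences and hairpin positions are those of RefSeq on GRCm38.p6, and host genes those of the GENCODE annotation on GRCm38. The members, marker lists and settings were chosen with earlier results of these data known. All deposited values were used.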

Additional observations from a re-analysis of the deposited data

Results flagged for a closer look

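In C57BL/6 naive DRG, miR-181b-5p in library 5 was far from the other 4 libraries, at 801 CPM against 1214 to 1311 CPM. It was the 1 such case among 10 entries checked in that group, where chance gives about 1 in 20. The same library had the highest miR-181a-5p and the lowest miR-181d-5p of all 14.

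For miR-181a-2-3p, every injured library was above every naive library in CAST/Ei and below every naive library in C57BL/6. Of all 638 miRNAs, 26.6% did not overlap in CAST/Ei and 14.9% in C57BL/6, in either direction. The share that did so in opposite directions was not counted. The log2 injury effects of miR-181a-2-3p differed by 0.82 between the strains (unadjusted p = 0.0443, limma adjusted p = 0.529), which did not pass over all miRNAs. An unadjusted limma p under 0.05 for this difference was found in 8.15% of all miRNAs. The effects were 0.41 in CAST/Ei and -0.41 in C57BL/6. Over the alternatives the difference was 0.63 to 1.08, with an adjusted p of 0.233 to 0.701.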

How the results depend on the processing

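Of the 40 log2 differences (8 entries in 5 comparisons), 21 kept their sign under every alternative run, and no entry gained a call under any of them. Reversals were of uncalled values, at most 0.61 in size. Where no value below shows it, the cause was not tested. Depth limits miR-181b-1-3p, miR-181b-2-3p and miR-181d-3p, which had the fewest reads.

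The number of miRNAs called for injury in C57BL/6 was 20, and became 32 with edgeR, 5 with edgeR without C57BL/6 injured library 1, 79 with DESeq2 and 3 with only the groups compared. For injury in CAST/Ei it was 7, and became 16 with DESeq2, 3 with a minimum of 50 CPM and 17 without C57BL/6 naive libraries 4 and 5. Between naive strains it was 71, and became 118 with DESeq2, 24 with a minimum of 50 CPM and 21 with only the groups compared. Between injured strains it was 21, and became 5 with a minimum of 50 CPM, 105 with only the groups compared and 36 without C57BL/6 naive libraries 4 and 5. For the strain difference in the injury effect it was 0, and became 1 with edgeR and 9 with DESeq2. Without CAST/Ei naive library 3 and C57BL/6 naive libraries 4 and 5, a choice made after seeing the data, it was 40 for injury in C57BL/6, 12 for injury in CAST/Ei and 45 between injured strains. Leaving out 1 library at a time gave 6 to 70 for injury in C57BL/6, 3 to 10 for injury in CAST/Ei and 33 to 148 between naive strains.

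miR-181d-5p between naive strains was the 1 entry called, and the count became 0 with plain CPM, with only the groups compared, and with edgeR without C57BL/6 injured library 1, an alternative added after seeing the data (adjusted p = 0.0658). With 1 library left out the count was 0 to 1 and its log2 difference 1.06 to 1.55.

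With the replicate block, which leaves C57BL/6 naive libraries 4 and 5 without a partner, the calls were 37 for injury in C57BL/6, 21 for injury in CAST/Ei, 111 between naive strains and 36 between injured strains, and miR-181d-5p kept its call (adjusted p = 0.0192). The numbers are not known to pair the libraries in any comparison. With that block, and also without libraries 4 and 5, miR-181b-1-3p reversed to 0.30 for injury in C57BL/6 and miR-181c-5p to 0.095 for the strain difference in the injury effect.

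For injury in C57BL/6, miR-181b-5p reversed to 0.061 with plain CPM, and miR-181b-1-3p to 0.30 with the 3 libraries left out together. For injury in CAST/Ei, miR-181b-5p reversed to -0.019 with edgeR, also without C57BL/6 injured library 1. With the 3 libraries left out, miR-181a-5p, miR-181b-5p and miR-181c-5p reversed to -0.42, -0.37 and -0.17. Between naive strains the same choice reversed miR-181a-5p to 0.046, miR-181b-5p to 0.18 and miR-181c-3p to -0.029. Between injured strains miR-181a-5p reversed to 0.0051 with edgeR and 0.022 with plain CPM. For the strain difference, miR-181b-1-3p reversed to 0.37 with edgeR, 0.61 with edgeR without C57BL/6 injured library 1 and 0.40 with DESeq2, and miR-181a-1-3p to 0.015 with DESeq2. With the 3 libraries left out, miR-181a-5p, miR-181b-5p and miR-181c-3p reversed to -0.11, -0.15 and 0.093.

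With 1 library left out, the values that changed sign ranged as follows. For injury in CAST/Ei they were -0.42 to 1.05 for miR-181a-5p, -0.37 to 0.24 for miR-181b-5p and -0.17 to 0.71 for miR-181c-5p. Between naive strains they were -0.30 to 0.32 for miR-181b-5p and -0.079 to 0.45 for miR-181a-1-3p. Between injured strains they were -0.042 to 0.20 for miR-181d-5p, -0.026 to 0.14 for miR-181c-3p and -0.012 to 0.067 for miR-181b-5p. For the strain difference they were -0.34 to 0.19 for miR-181a-1-3p, -0.58 to 0.24 for miR-181b-1-3p and -0.29 to 0.33 for miR-181b-5p.

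Scaling moved the median of all miRNAs by more than 0.1 in the injury comparisons and elsewhere. For injury in CAST/Ei it was -0.09 as deposited, 0.16 with plain CPM and -0.04 with DESeq2, and for injury in C57BL/6 0.12, 0.26 and -0.04. For the strain difference in the injury effect it was -0.20, -0.08 and 0.02, and between naive strains 0.12, 0.08 and -0.07. The share of calls that were higher in the same order was 53.5%, 35.7% and 30.5% between naive strains, 75.0%, 93.8% and 26.6% for injury in C57BL/6, 100%, 100% and 87.5% for injury in CAST/Ei, and 23.8%, 27.8% and 36.0% between injured strains.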
